A study of Mus musculus with 6 samples.

Results

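AP-1 is the clathrin adaptor of the trans-Golgi network, and its subunits are encoded in the mouse by Ap1b1 (beta), Ap1g1 and Ap1g2 (gamma), Ap1m1 and Ap1m2 (mu), and Ap1s1, Ap1s2 and Ap1s3 (sigma). All non-control array probes whose accession names 1 of these 8 genes were taken, which gave 12 probes for the 8 genes, out of 39429 probes on the array. The family was selected on values of this same comparison: an Ap1s2 probe and the Ap1m1 probe stood out, and the Ap1s2 probes disagreed. Its differences between the groups are therefore given as descriptions. Where members are counted past the threshold used for all probes, the count is not independent of that selection and supports nothing. The samples were MIN6B1 cells, a clonal mouse insulinoma line that secretes insulin and stands in for pancreatic beta cells. The control group (siGFP, 3 samples) received an siRNA to green fluorescent protein, and the other group (3 samples) received an siRNA to circHIPK3, the circular transcript of Hipk3. Both groups were kept for 48 h in DMEM Glutamax with fetal calf serum, penicillin, streptomycin and β-mercaptoethanol and received the same lipid reagent, and no untransfected cells were part of the comparison. Total RNA of each sample was hybridised to a single-colour Agilent array.

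A working AP-1 complex holds a gamma and a beta chain, which form its large core, a mu chain and a sigma chain. The small GTPase Arf1 and the lipid phosphatidylinositol 4-phosphate bring it to the membrane of the trans-Golgi network and endosomes, where it selects cargo by short sorting signals and recruits clathrin. In endocrine cells such as beta cells, AP-1 and clathrin also coat immature secretory granules and retrieve proteins such as furin and mannose 6-phosphate receptors from them as the granules mature.

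Of the 8 genes, Ap1s2 and Ap1g1 had more than 1 probe and at least 1 probe whose groups were apart, and their promoters are given here. Each sequence runs from 250 bases before to 50 bases after the start in the RefSeq table (build GRCm38.p6), 5′ to 3′ on the gene's strand. Capitals mark any match, on either strand, to 4 motifs. These are the E-box core CACGTG, the GC box GGGCGG, the CCAAT box, and TGACG, the core of the cAMP response element.
Ap1s2, chrX:163908767-163909066, plus strand: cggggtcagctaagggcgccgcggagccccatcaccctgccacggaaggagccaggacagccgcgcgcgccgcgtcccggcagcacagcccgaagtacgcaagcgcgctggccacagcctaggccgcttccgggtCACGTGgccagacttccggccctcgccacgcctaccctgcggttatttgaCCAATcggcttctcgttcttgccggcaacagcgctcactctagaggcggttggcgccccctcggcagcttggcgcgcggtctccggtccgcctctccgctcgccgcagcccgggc
Ap1g1, chr8:109778333-109778632, plus strand: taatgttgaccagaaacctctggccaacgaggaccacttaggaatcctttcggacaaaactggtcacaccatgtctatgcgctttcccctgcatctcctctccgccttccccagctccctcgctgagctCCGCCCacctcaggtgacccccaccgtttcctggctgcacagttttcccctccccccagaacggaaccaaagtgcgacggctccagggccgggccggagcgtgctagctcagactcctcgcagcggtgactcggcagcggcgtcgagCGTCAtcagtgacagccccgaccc

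The Ap1s2 promoter held 1 E-box core, with its first base at -115 from the start, and 1 CCAAT box. The E-box core was found in 1 of the 7 member promoters in the table and in 7.15% of all 32851 promoters. The promoter of Ap1m1 was not among the sequences used, so that gene is not covered here. The Ap1g1 promoter held 1 GC box and 1 cAMP response element core, each read on the minus strand. The GC box was in 4 of the 7 member promoters and in 35.7% of all promoters, the CCAAT box in 2 of 7 and in 37.4%, and the cAMP response element core in 2 of 7 and in 20.8%. The base composition of the 7 ran from 58.3% G and C for Ap1g2 to 71.7% for Ap1s2, beside a median of 52.7% over all promoters. These matches describe the letters of the windows alone.

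Signals are given as log2 of the processed spot intensity relative to the array's own 75th percentile, so that 0 is the 75th percentile of that array. Levels of different probes are not set against each other, since probes differ in how well they bind. A change is the mean of the circHIPK3 siRNA arrays minus the mean of the siGFP arrays on this log2 scale, followed by its standard error (SE) in limma. A probe is called when its Benjamini-Hochberg adjusted p, over the 31362 probes kept, was below 0.05. The labels do not say that replicates were separate cultures, so the spread may be technical, and 6 arrays limit the precision. The 75th percentile lay between 2939 and 3669 intensity units. By the scan identifiers in the file headers, the 3 siGFP arrays and circHIPK3 siRNA replicate 1 were scanned on 1 slide and circHIPK3 siRNA replicates 2 and 3 on another. A value within the first slide, 1 array against 3, is therefore given beside the changes described at length. All 10 beta cell markers examined, among them Ins1, Ins2 and Pdx1, were well above background on all 6 arrays and none was called. Of the markers of other cells, all 4 of other islet cells (the glucagon gene Gcg among them), all 4 of epithelium, both matched leukocyte markers, and 2 of 3 each for fibroblasts, endothelium and acinar cells were also well above background on all 6 arrays, whereas the endothelial marker Cdh5 and the fibroblast marker Pdgfra were not on any. On each array 77.6% to 83.4% of all probes were well above background, so this flag alone does not show that such cells were present. Signals ranged widely, with Gcg at 37226 to 99589 units and Kdr at 5338 to 6752. Ptprc read 131 to 199, Col3a1 42 to 76 and Cela1 64 to 88. No kept marker of other cells was called, and any part of such cells in the results was not tested. Hipk3 itself, by its brighter probe, read 2.69, 2.96 and 2.78 on siGFP arrays and 2.53, 2.89 and 2.51 on the others, a change of -0.17 ± 0.14 (SE) with overlapping groups. Its second probe read -1.44, -1.28 and -1.28 against -1.77, -1.44 and -1.70, a change of -0.31 ± 0.12 (SE) with narrowly overlapping groups, and neither probe was called. Where these probes lie relative to the circularised exon was not analysed, so they do not check the knockdown.

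Among the AP-1 subunits, 1 Ap1s2 probe was 2.09-fold higher after circHIPK3 siRNA and the other Ap1s2 probe was 1.20-fold lower. The single Ap1m1 probe was 1.63-fold lower, the 3 Ap1g1 probes were 1.16- to 1.23-fold lower, and Ap1b1 and Ap1s1 lay within 0.04 of no change. All 12 probes were well above background on all 6 arrays, the lowest at 944 units, so none was lost to the filter on dim probes. Of the 12, 1 was called higher, where 0.58% of all kept probes were, and 1 was called lower, where 0.743% were. The groups did not overlap for 5 of the 12: 1 was higher, against 16.2% of all kept probes, and 4 were lower, against 9.74%. Because the comparison itself chose the family, nothing is read from these shares.

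**Figure D1:**
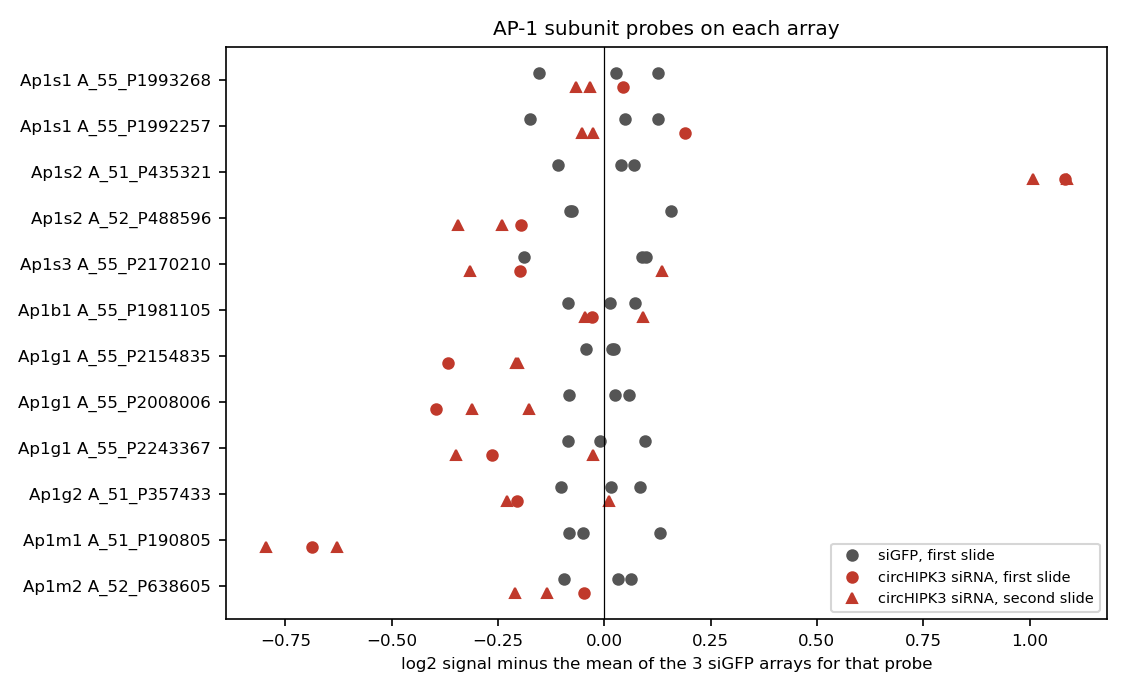
Log2 signal of each AP-1 probe on each array (x axis), minus the mean of the 3 siGFP arrays for the same probe, with 1 row per probe. Grey points are siGFP arrays and red points circHIPK3 siRNA arrays, circles for the first slide and triangles for the second. The red points of Ap1s2 A_51_P435321 lie near 1 and those of Ap1m1 between -0.80 and -0.63, while the red and grey points of 7 probes overlap.

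Ap1g1 encodes gamma-1, the large chain whose ear domain binds accessory proteins and whose trunk contacts Arf1. Its probe A_55_P2154835 read 1.16, 1.09 and 1.16 on the siGFP arrays and 0.77, 0.93 and 0.93 on the circHIPK3 siRNA arrays. Its probe A_55_P2008006 read 0.25, 0.15 and 0.29 against -0.17, -0.08 and 0.05. For both probes every circHIPK3 siRNA array lay below every siGFP array, with 0.16 and 0.09 between the nearest arrays. The third probe, A_55_P2243367, read -1.51, -1.69 and -1.62 against -1.87, -1.96 and -1.63, and here circHIPK3 siRNA replicate 3 fell inside the siGFP range. The changes were -0.26 ± 0.10, -0.29 ± 0.10 and -0.21 ± 0.12 (SE, n = 3 per group). The 3 probes carry the same RefSeq accession and their changes differed from each other by 0.08 at most. Within the first slide the changes were -0.37 ± 0.13, -0.39 ± 0.14 and -0.26 ± 0.14 (SE).

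Ap1g2 encodes gamma-2, a less studied paralog of gamma-1. Its probe read -0.09, 0.03 and 0.10 on the siGFP arrays and -0.20, 0.02 and -0.22 on the circHIPK3 siRNA arrays. One circHIPK3 siRNA array lay inside the siGFP range and the others below it, and the change was -0.14 ± 0.11 (SE). Ap1b1 encodes the beta-1 chain, which carries the clathrin-binding hinge. It read 2.61, 2.51 and 2.67 against 2.57, 2.69 and 2.55, so that the groups interleaved, with a change of 0.01 ± 0.10 (SE).

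The mu chain reads tyrosine-based sorting signals. Ap1m1 encodes mu-1A, which is widely expressed, and its probe read 2.13, 2.10 and 2.31 for siGFP and 1.49, 1.55 and 1.38 for circHIPK3 siRNA. All 3 circHIPK3 siRNA arrays were below all 3 siGFP arrays, with 0.55 between the nearest. The group means were 2.18 ± 0.12 and 1.47 ± 0.09 (SD, n = 3 each), a change of -0.70 ± 0.11 (SE). The change was -0.69 ± 0.15 (SE) within the first slide. The change lay between -0.81 and -0.64 in all 13 alternatives, several of which could not move it. With an array left out it lay between -0.74 and -0.64, and with groups apart no left-out array could have turned its sign.

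Ap1m2 encodes mu-1B, known from polarised epithelial cells, where it serves sorting to the basolateral membrane. Its probe was well above background on all 6 arrays of this beta cell line. It read 0.33, 0.49 and 0.46 for siGFP and 0.38, 0.29 and 0.22 for circHIPK3 siRNA. Replicate 1 of the circHIPK3 siRNA group lay inside the siGFP range, and the change was -0.13 ± 0.10 (SE). The changes of Ap1m1 and Ap1m2 were thus -0.70 and -0.13, and their difference was not tested.

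The sigma chain is the smallest and, together with gamma, binds dileucine sorting signals. Ap1s2 encodes sigma-1B, whose human counterpart is an X-linked intellectual disability gene. Its probe A_51_P435321 read 0.57, 0.75 and 0.72 for siGFP and 1.76, 1.69 and 1.77 for circHIPK3 siRNA. Every circHIPK3 siRNA array was above every siGFP array, and the nearest arrays were 0.94 apart. In intensity units these were 4358, 6162 and 5561 against 12175, 11806 and 11632. The means were 0.68 ± 0.10 and 1.74 ± 0.05 (SD, n = 3 each), a change of 1.06 ± 0.10 (SE). The change was 1.08 ± 0.14 (SE) within the first slide. The change ranged from 0.96 to 1.09 over the 13 alternatives, several of which could not move it. With an array left out it ranged from 1.01 to 1.096, and here too no left-out array could have turned its sign.

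The other Ap1s2 probe, A_52_P488596, went the opposite way. It read -0.16, 0.07 and -0.16 for siGFP and -0.28, -0.32 and -0.43 for circHIPK3 siRNA. All 3 circHIPK3 siRNA arrays were below the siGFP arrays, with 0.12 between the nearest, and the change was -0.26 ± 0.11 (SE). Both probes carry the accession NM_026887, 1 of several Ap1s2 transcripts in RefSeq. The places of the probes along the transcript, and any match to other transcripts, were not analysed, since probe sequences were not used here. The direction for the gene therefore depended on the probe.

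The disagreement was measured within each array as the log2 value of A_51_P435321 minus that of A_52_P488596. It was 0.73, 0.67 and 0.88 on the siGFP arrays and 2.04, 2.01 and 2.19 on the circHIPK3 siRNA arrays, a shift of 1.32 that does not depend on how an array is scaled as a whole. The probes had opposite signs in all 19 settings in which both were fitted, the main one included, and the shift ranged from 1.26 to 1.38. Much of this was fixed in advance. Median scaling, the probe filters, trend and robust variance and the replicate block left the shift at 1.32. Slide as a fixed block and the first slide alone are the same contrast, with 1.28 in both. Since the groups of both probes were apart, no left-out array could have turned a sign. Among the 4432 genes with several kept probes, the changes of a gene's probes typically spanned 0.12 (median), and 8 genes, 0.181%, had a span at least as wide as that of Ap1s2. Ap1s2 is 1 of these 8, and the disagreement was among the reasons for choosing the family. In the other AP-1 genes with several probes the span was 0.08 for Ap1g1 and 0.06 for Ap1s1.

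**Figure D2:**
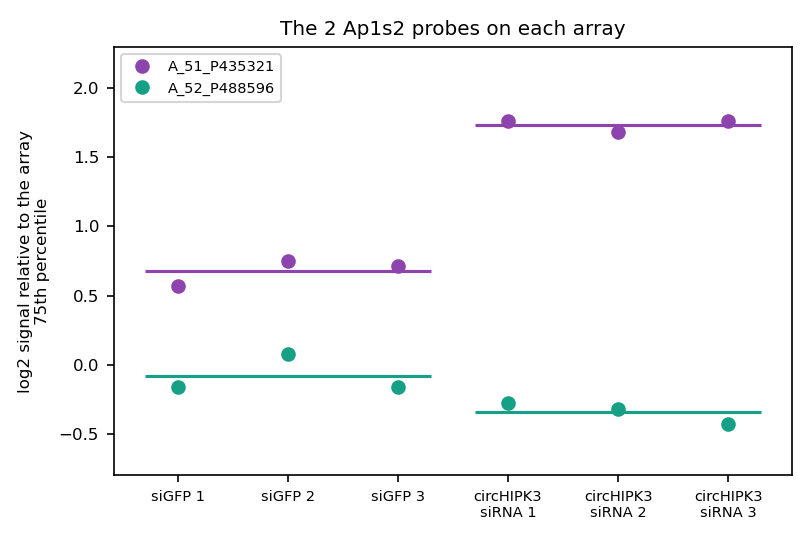
Log2 signal relative to the array's 75th percentile (y axis) of the 2 Ap1s2 probes on each of the 6 arrays (x axis). Points are single arrays and lines the group means: A_51_P435321 moves from 0.68 to 1.74, and A_52_P488596 from -0.08 to -0.34.

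Ap1s1 encodes sigma-1A, the widely expressed form. Its probe A_55_P1993268 read 3.16, 2.97 and 3.25 for siGFP and 3.17, 3.06 and 3.09 for circHIPK3 siRNA, and its probe A_55_P1992257 read 3.02, 2.80 and 3.10 against 3.16, 2.92 and 2.95. The groups overlapped in both, and the changes were -0.02 ± 0.11 and 0.04 ± 0.12 (SE). Ap1s3 encodes sigma-1C and had the widest replicate spread of the family in the circHIPK3 siRNA group (SD 0.23). It read -0.03, 0.24 and 0.25 against -0.04, 0.29 and -0.16, a change of -0.13 ± 0.15 (SE) with overlapping groups.

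Across the 12 probes, 9 changes were below 0 and 3 above it. The median change was -0.14, where that of all kept probes was 0.08. Scaling by the array median instead moved the all-probe median to -0.03, so the members are also given relative to it: their median was then -0.21 and 11 of the 12 lay below the median of all probes, all except Ap1s2 A_51_P435321. Under quantile normalization 9 of 12 lay below it, with a median of -0.16, and with normexp 8 of 12. With the main scaling, 49 of the 67 other pathway genes described below also lay below the median of all probes. Their median was -0.05 relative to it. The lowest AP-1 signal on any array was 944 units, where the array medians were 344 to 441. The members were not set against probes of like signal, so whether this lean is particular to AP-1 was not tested. On single arrays, the median deviation of the 12 probes from their own siGFP means was -0.02, -0.06 and 0.06 for siGFP arrays, against -0.20, -0.10 and -0.19 after circHIPK3 siRNA. Relative to all probes, the changes of Ap1m1 and of A_51_P435321 were -0.78 and 0.98.

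**Figure D3:**
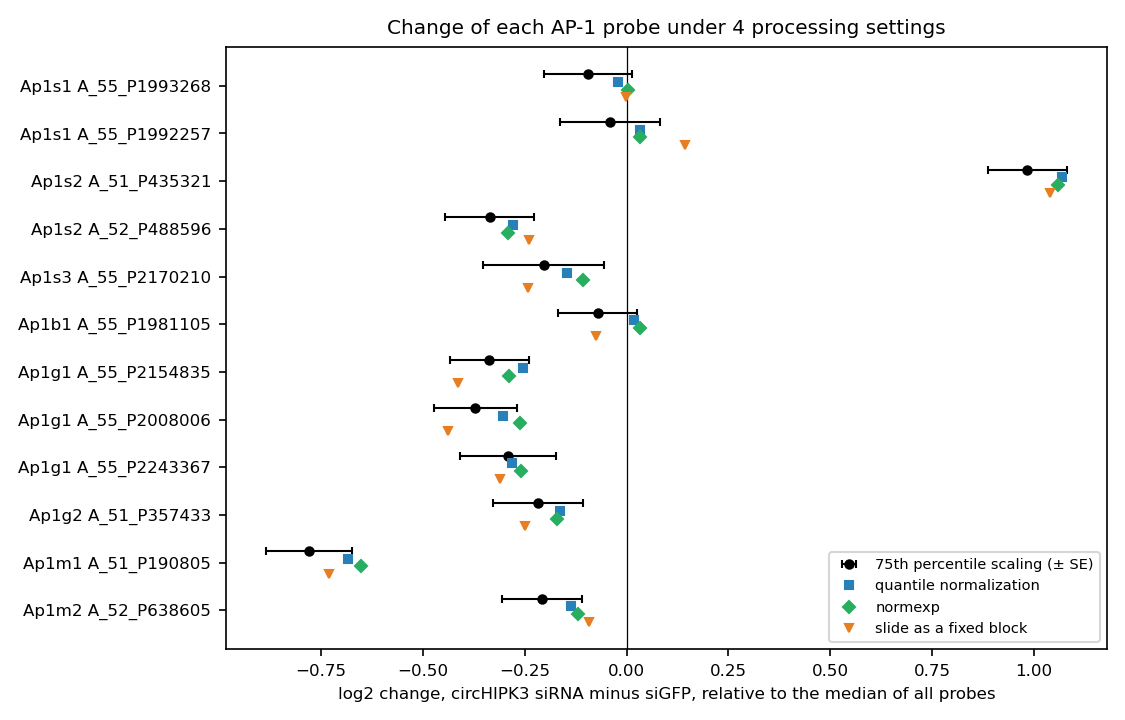
Log2 change of each AP-1 probe, circHIPK3 siRNA minus siGFP, relative to the median of all probes (x axis), under 4 settings marked by shape, with the SE shown for the 75th percentile scaling. Ap1s2 A_51_P435321 stays near 1 and Ap1m1 between -0.78 and -0.65, while the Ap1b1 and Ap1s1 probes fall on either side of 0 depending on the setting.

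Over all kept probes, 233 were called lower and 182 higher. That split moved with the scaling, to 278 lower and 54 higher under quantile normalization, 530 and 254 under median scaling, and 460 and 88 with normexp. The changes of Ap1m1 in these 3 settings were -0.66, -0.81 and -0.64, and those of Ap1s2 A_51_P435321 were 1.09, 0.96 and 1.08.

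By the highest Pearson correlation with Ap1s2 A_51_P435321 over the 6 arrays, the closest probes of other genes were those of Morn4, Tenm4 and Tlcd4 (r = 0.99 for each). Their changes were smaller, at 0.36, 0.44 and 0.24, and none was called. Of 22472 probes compared, 244 had r above 0.95. All of them share the same 6 arrays in 2 groups, so that any probe with a clear and even group difference has a high r.

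The other genes of the pathway were taken from 7 lists with 67 genes, each gene by its brightest kept probe, and all 67 were measured. By limma with Benjamini-Hochberg adjustment none passed the threshold in either direction, where 0.939% of 17146 genes with a symbol were called lower and 0.56% higher. At an unadjusted limma p under 0.05 there were 3 of the 67, where 6595 of the 31362 kept probes were. These sets are unlike, since the kept probes include dimmer probes of the same genes and probes without a symbol. With only the brightest probe of each gene fitted, it was 3 of the 67 and 5489 of 26030, which still include probes without a symbol. The median change was 0.02, and 49 of the 67 lay below the median of all probes.

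Clathrin itself, which AP-1 recruits, was among them. The 3 clathrin genes had a median of 0.02, and the heavy chain gene Cltc and the light chain gene Cltb gave 0.07 ± 0.11 and -0.19 ± 0.12 (SE, limma adjusted p = 0.718 and 0.381). The 5 genes of AP-2, the adaptor of the plasma membrane, had a median of -0.02 and ran from -0.15 to 0.05. Their smallest p-values were those of the alpha chain genes Ap2a2 at -0.15 ± 0.12 and Ap2a1 at 0.05 ± 0.12 (SE, limma adjusted p = 0.484 and 0.838). The 7 genes of AP-3, an adaptor of endosomes and lysosome-related organelles, had a median of 0.01. Ap3m2, a mu chain, gave -0.27 ± 0.12 and Ap3s2, a sigma chain, -0.15 ± 0.09 (SE, limma adjusted p = 0.250 and 0.382). Over all 7 lists the changes ran from -0.31 to 0.44 by the brightest probe of each gene. Dimmer probes of the same genes reached further. A second probe of the cargo gene Cpd gave 0.49 ± 0.10, where its brightest gave 0.05 ± 0.10 (SE). A second Ap3s1 probe gave -0.43 ± 0.25, where its brightest gave 0.08 ± 0.12 (SE). None of these was called.

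The highest of the 67 by brightest probe was Ap4b1, the beta chain of the Golgi adaptor AP-4. It read from 1.24 ± 0.09 to 1.68 ± 0.07 (SD, n = 3 each), 0.44 ± 0.10 (SE) higher but not past the threshold (limma adjusted p = 0.0732). Its second probe gave 0.36 ± 0.11 (SE). The 8 genes of AP-4 and AP-5 had a median of 0.09, and Ap5s1 gave 0.13 ± 0.10 (SE, limma adjusted p = 0.474).

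Among 11 genes for Arf proteins, their regulators and phosphatidylinositol 4-kinases, which together bring AP-1 to membranes, the median was 0.04. Arf4, a Golgi GTPase, gave -0.29 ± 0.14 and Arfgap1, which promotes GTP hydrolysis on Arf1, 0.27 ± 0.16 (SE, limma adjusted p = 0.274 and 0.370). The second Arf4 probe gave -0.26 ± 0.11 (SE), but the second Arfgap1 probe gave 0.04 ± 0.19 (SE). The 19 genes for GGA adaptors and AP-1 partners had a median of 0.0022. Scyl2, a kinase-like protein of clathrin-coated vesicles, gave 0.17 ± 0.09 and Gga2, a monomeric adaptor of the trans-Golgi network, -0.20 ± 0.11 (SE, limma adjusted p = 0.302 and 0.317).

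Of 14 genes whose proteins travel with or are sorted by AP-1, none passed, and the median was -0.03. Lamp1, a lysosomal membrane protein, gave -0.31 ± 0.11 and the proprotein convertase gene Furin -0.30 ± 0.11 (SE, limma adjusted p = 0.175 and 0.185). For both, all 3 circHIPK3 siRNA arrays were below all 3 siGFP arrays. By brightest probe, the groups were apart and lower for 5 of the 14, against 9.74% of all kept probes. They were apart and higher for 2, against 16.2%: M6pr at 0.19 ± 0.10 and Stx6 at 0.25 ± 0.12 (SE). A second probe was also apart and higher for M6pr, but that of Stx6 overlapped. Second probes of Sort1 (0.22 ± 0.10, SE) and Cpd (0.49 ± 0.10, SE) were apart and higher, where their brightest probes overlapped. That of Vamp4 was apart and lower, like its brightest probe, and the further Ptprn2 probes overlapped.

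**Figure D4:**
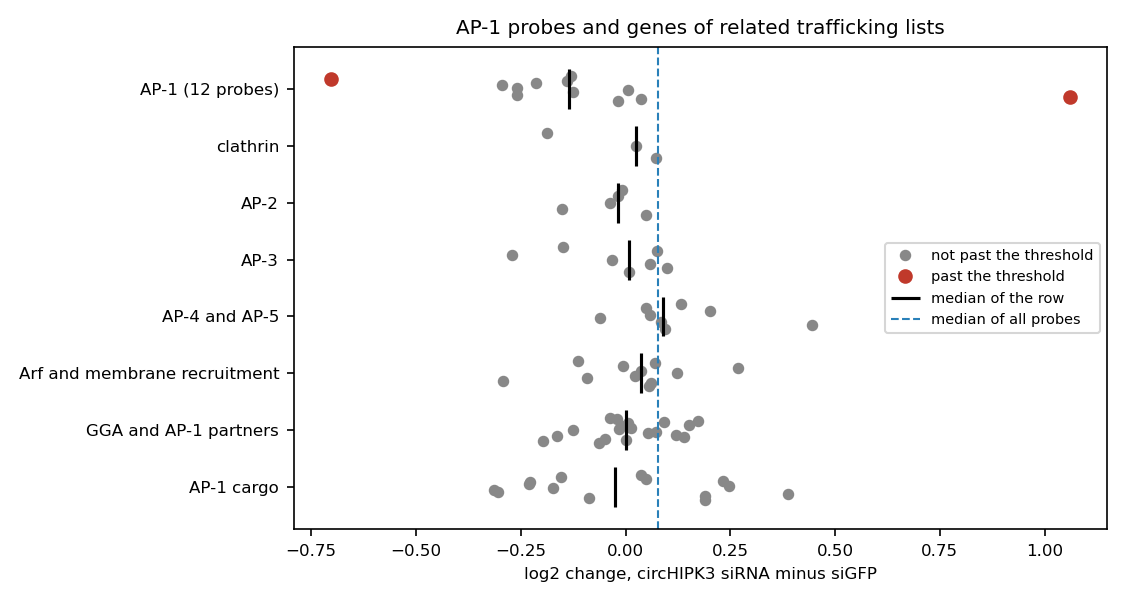
Log2 change, circHIPK3 siRNA minus siGFP (x axis), of the 12 AP-1 probes and of the genes in the 7 related lists, with 1 point per probe or gene. Red points passed the threshold, black bars are row medians and the dashed line is the median of all probes (0.08). The 2 red points, at -0.70 and 1.06, are the AP-1 probes on which the family was selected, and no point of the 7 lists is red.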

How the data were processed

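The deposited scanner files give background-subtracted spot intensity made by Agilent Feature Extraction, version 11.0.1.1 per the file headers, with flags for background, saturation and uniformity. The deposited value table holds log2 values by the authors of unstated normalization (not given in the sources used here). The table's column medians were 9.7965 to 9.7968 and each column correlated at 0.9999 or above with its array, so scale and direction are known and genes were not centred. Non-uniform and outlier spots were left out, spots of a probe averaged on the log2 scale, and each array's 75th percentile subtracted. A probe was kept when all its spots were well above background on all 3 arrays of a group (31362 of 39429), and no probe was saturated. Accessions matched a RefSeq symbol (GRCm38.p6) for 27234 probes, and 12195 stayed unnamed.

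Differences were fitted with limma 3.58.1 in R 4.3.3 (group alone, Benjamini-Hochberg over all kept probes, two-sided). The procedure was also run on simulated data with independent errors and no slide effect, so that run says nothing about the 2 slides. Probes were fitted singly because those of a gene could disagree. Figures used matplotlib 3.10.9 in Python 3.11.15. The members and lists were chosen with earlier results of these data known. Named genes were all members, up to 4 called or otherwise the 2 smallest-p genes per list, and the 3 probes most correlated with the member of largest change. Alternatives covered normalization, background correction, probe filter, variance, blocks and each array left out.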

Additional observations from a re-analysis of the deposited data

How the results depend on the processing

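Ap1m1 and Ap1s2 A_51_P435321, on which the family was selected, kept their direction in all 13 processing alternatives and with each array left out. With non-overlapping groups, no left-out array could have turned it. Several alternatives could not move these changes: the probe filters, the brightest-probe setting, trend and robust variance and the replicate block left them at -0.70 and 1.06. Slide as a fixed block and the first slide alone are the same contrast, with -0.69 and 1.08 in both. Only as a description, since it is not independent of that selection, the count of AP-1 probes past the limma threshold was 2. It was 0 with no filter on dim probes, with slide as a fixed block and with the replicate block, and 0 to 2 with an array left out. The cause was not tested. At an unadjusted limma p under 0.05, no filter, slide as a fixed block and the replicate block gave 4, 4 and 3 of the 12 AP-1 probes. Over all probes they gave 6819 of 39429, 3318 of 31362 and 6360 of 31362, in that order. Nothing is read from these counts. The count over all probes, 415, became 897 with array weights, 784 with median scaling, 776 with trend and robust variance, 267 with the value table, 215 with slide as a random block, 108 within the first slide, 1 with slide as a fixed block, and 0 with no filter or the replicate block (6819 and 6360 at an unadjusted limma p under 0.05). It ran from 0 without siGFP replicate 2 or circHIPK3 siRNA replicate 3 to 1802 without circHIPK3 siRNA replicate 1, a setting in which slide and group cannot be told apart. The AP-1 median relative to all probes, -0.21, was -0.15 with normexp and -0.27 to -0.15 with an array left out. The 7 lists gained 1 called gene, Ap4b1, with trend and robust variance, and 0 with any array left out. The deviations of same-numbered arrays from their group means correlated at r = -0.0043, 0.27 and -0.11 for numbers 1, 2 and 3. Between differently numbered arrays of the groups r ran from -0.34 to 0.28. Same-numbered arrays did not stand apart from that range, so the numbers are not taken as pairs.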
